A study of Homo sapiens with 15 samples.

Results

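MYC encodes a transcription factor of cell growth, and its transcript was followed here in MV4-11, a cell line from human acute myeloid leukemia, after a compound or the vehicle DMSO had been present for 24 h. The gene was found by its symbol in the platform annotation of the array. A single feature carried that name, so MYC was 1 gene of the 14812 named genes measured. The groups were OTX015 at 300 nM, DW71177 at 300 nM, RVX208 at 5 uM, DW71374 at 300 nM and DMSO, with 3 arrays each. All groups were the same line in the same medium, treated in wells of 6-well plates, and the labels do not say whether the wells of a group came from separate cultures. The p-values therefore rest on array-to-array spread, part or all of which can be technical.

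MYC binds DNA as a pair with its partner MAX, mostly at the E-box sequence, and raises genes of ribosome assembly, nucleotide synthesis and the cell cycle. The MXD proteins, MNT and MGA also pair with MAX and oppose MYC at the same sites. BET proteins, BRD2 among them, read acetylated histones through bromodomains, and in KMT2A-rearranged leukemia, the kind that MV4-11 represents, MYC is a well known BET-dependent gene. RVX208, also called apabetalone, favours the second bromodomain of these proteins, and OTX015, also called birabresib, takes both. For DW71177 and DW71374 the labels give a code name only.

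The deposited values are log2 signals that the authors had normalized between arrays, so a difference is one relative to the rest of the array. Array medians lay between 3.72 and 3.79, and the correlation of replicates over genes was 0.992 to 0.995. Of 9 measured markers of myeloid leukemia, 6 averaged at least 5 on the log2 scale, among them FLT3, SPI1 and LYZ (log2 9.79, 7.66 and 11.1 in DMSO). Of these 9, 5 fell and 1 rose with OTX015, 4 fell and 1 rose with DW71177 and 3 fell with RVX208. Of all genes, limma called 14.5% lower and 11.2% higher with OTX015, 9.88% and 9.95% with DW71177, and 3.11% and 3.41% with RVX208. Fitted alone, the 6736 genes of mean 5 or more gave 3777 calls (OTX015), 3250 (DW71177) and 1576 (RVX208) in either direction. LYZ (-1.02, -1.15 and -0.75), CSF1R (-1.55, -1.06 and -0.33) and the dim MPO (-0.49 in each) fell with these 3 compounds, though the RVX208 calls of CSF1R and MPO were lost under 5 of 16 and 7 of 15 other settings. KIT fell with OTX015 and DW71177 (-1.27 and -1.11). Its log2 signal averaged 4.24 and 4.40 in these 2 groups, under 5, where the size of a fall is not well measured. SPI1 fell with OTX015 (-0.22), and MEIS1 rose with OTX015 and DW71177 (0.58 and 0.48). FLT3, CD4 and ANPEP passed no test. Of 8 measured markers of other cell types, EPCAM averaged 2.64, DCN 1.74, CD2 4.01 and KLF1 4.63 in DMSO, whereas KRT18 averaged 7.74, NKG7 7.46, PF4 5.92 and KRT8 5.29. KRT18, KRT8, EPCAM, DCN and KLF1 passed no limma test against DMSO. NKG7 fell with OTX015, DW71177 and RVX208 (-1.20, -0.83 and -0.58), CD2 fell with DW71177 (-0.29) and PF4 with OTX015 (-0.35), the CD2 and PF4 calls being lost under 3 of 15 and 9 of 16 other settings. Group sums of log2 signal over the measured markers ran from 59.2 to 63.4 for 9 myeloid, 10.1 to 11.5 for 2 lymphoid, 10.2 to 10.6 for 2 erythroid and megakaryocytic, and 17.2 to 17.6 for 4 epithelial and stromal markers. The part of these markers in the MYC result was not tested. Fewer cells of a kind and less RNA per cell cannot be told apart in such bulk samples.

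MYC was a bright transcript with little spread. Its log2 signal was 7.89, 7.87 and 7.91 in the 3 OTX015 arrays. It was 8.22, 8.08 and 8.16 in the DW71177 arrays. It was 8.97, 8.98 and 9.04 in the RVX208 arrays. In DW71374 arrays it was 9.33, 9.26 and 9.25, against 9.31, 9.29 and 9.35 in DMSO arrays. The OTX015 arrays were thus the lowest, the DW71177 arrays came next, and the RVX208 arrays lay between these and DMSO without touching either. The DW71374 arrays overlapped the DMSO arrays. Group means were 7.89 ± 0.016 with OTX015, 8.15 ± 0.069 with DW71177, 8.99 ± 0.038 with RVX208, 9.28 ± 0.045 with DW71374 and 9.31 ± 0.031 in DMSO (SD, n = 3 each). The spread within groups, pooled over the 5 groups, was 0.044 for MYC and had a median of 0.124 over all genes. That median takes in dim genes, as only 6736 of 14812 genes had a mean of 5 or more. Spread was not compared among genes of like brightness. In DMSO the MYC signal was above that of 98.2% of genes, a comparison of signals from different features and so a guide to brightness only.

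**Figure D1:**
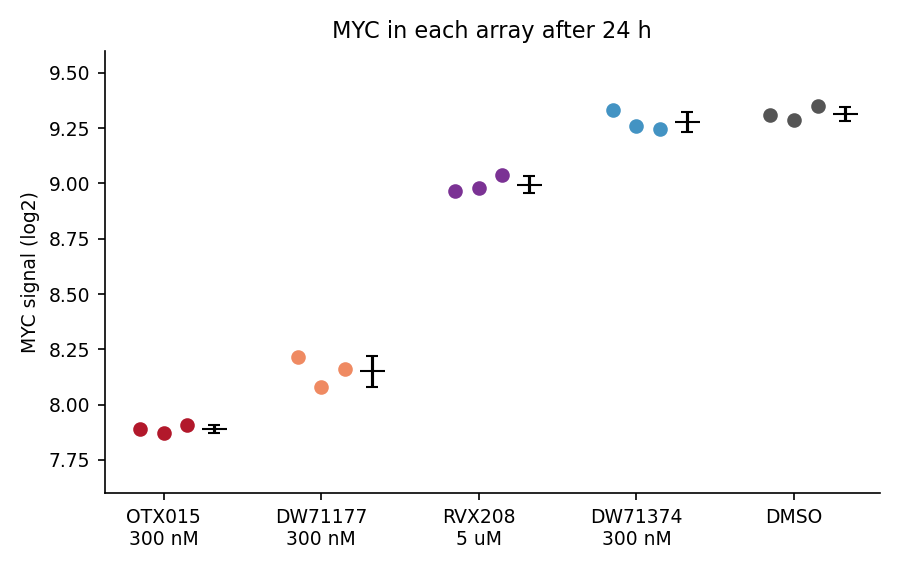
MYC signal on the log2 scale (vertical axis) in each of the 15 arrays (points), with the group mean and SD beside them. The OTX015, DW71177 and RVX208 arrays form 3 separate levels below DMSO, and the DW71374 arrays lie at the DMSO level.

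Against DMSO, the remaining MYC signal differed widely between compounds. It was 37.3% of the DMSO level with OTX015 (95% confidence interval 34.4 to 40.4; log2 difference -1.42 ± 0.054, SE of the fit, n = 3 and 3; limma adjusted p = 7.7e-10). With DW71177 it was 44.6% (41.2 to 48.4; log2 -1.16 ± 0.054, limma adjusted p = 9.2e-09). With RVX208 it was 80.1% (73.9 to 86.8; log2 -0.32 ± 0.054, limma adjusted p = 0.0027). With DW71374 it was 97.6% (90.1 to 106; log2 -0.04 ± 0.054, limma adjusted p = 0.99), and the interval bounds any fall at a remaining level of 90.1%. Of all genes tested, limma called 25.7% with OTX015, 19.8% with DW71177, 6.52% with RVX208 and 0% with DW71374, where 686 genes had an unadjusted p under 0.05. These shares include dim genes. Fitted alone, the 6736 genes of mean 5 or more gave 3777 calls (OTX015), 3250 (DW71177), 1576 (RVX208) and 0 (DW71374). All 3 arrays of OTX015, DW71177 and RVX208 lay below the 3 DMSO arrays for MYC. Groups did not overlap for 36.2%, 32.6% and 26% of all genes in these comparisons, and for 10.7% with DW71374.

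The compounds were also compared with each other, which made 10 comparisons of MYC in all. At the shared dose of 300 nM, the MYC signal under DW71177 was 1.20 times that under OTX015 (log2 difference 0.26, interval 0.14 to 0.38, limma adjusted p = 0.037, n = 3 and 3), in a comparison in which limma called 1.26% of genes. The 3 DW71177 arrays lay above the 3 OTX015 arrays, but the share of all genes separated in this way was not counted for this comparison. Separation of 3 arrays from 3 is weak evidence, as 10.7% of all genes showed it between DW71374 and DMSO, where limma called 0%. The call for MYC is not firm. The limma adjusted p ranged from 0.00096 to 0.36 over the other settings. It was 0.071 to 0.11 without DW71177 replicate 1 or 3 or without any 1 of the 3 OTX015 replicates, and 0.043 without DW71177 replicate 2.

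DW71177 and OTX015 each left far less MYC than DW71374 did at the same 300 nM. The signal was 45.8% of the DW71374 level with DW71177 (interval 42.2 to 49.6, limma adjusted p = 1.3e-08) and 38.2% with OTX015 (35.2 to 41.4, limma adjusted p = 9.8e-10). Limma called 19.5% and 25.2% of genes in these comparisons. RVX208 was given at 5 uM, so its comparisons set different doses side by side. Its MYC log2 signal averaged 8.99, next to 7.89 with OTX015, 8.15 with DW71177 and 9.28 with DW71374. The log2 differences of RVX208 from these 3 groups were 1.10, 0.84 and -0.29 (limma adjusted p = 2.6e-08, 1.1e-06 and 0.0059), where limma called 14.5%, 4.48% and 6.45% of genes. In the order OTX015, DW71177, RVX208, DW71374 and DMSO, the only neighbours not separated by the test were DW71374 and DMSO, and the step between OTX015 and DW71177 was the one that other settings ended.

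**Figure D2:**
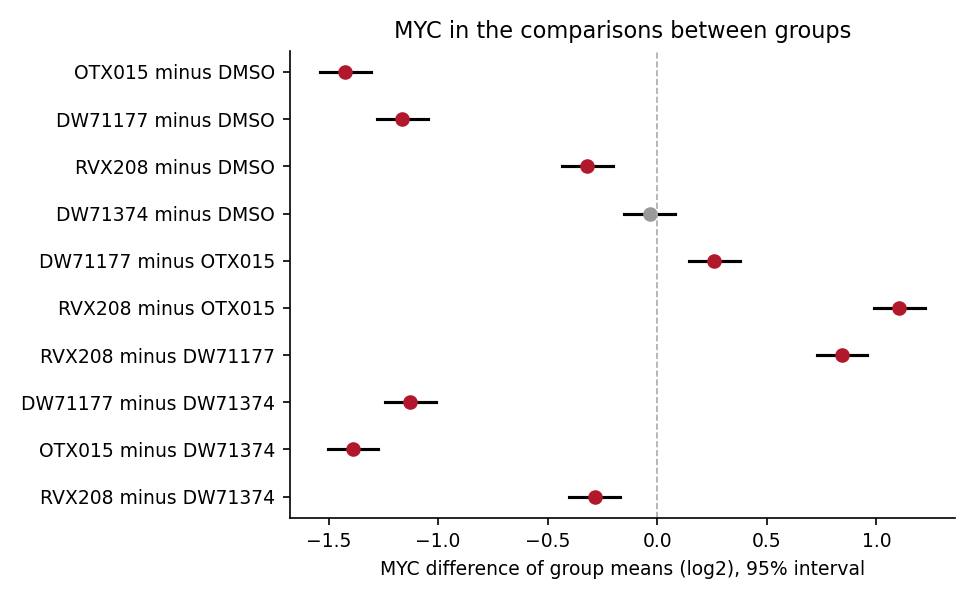
Difference of MYC group means on the log2 scale (horizontal axis) with its 95% confidence interval, for the 10 comparisons, first-named group minus second. Red points passed the limma test and the grey point, DW71374 minus DMSO at -0.04, did not.

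The place of MYC among all genes changed with the compound. With OTX015, 31 of 14812 genes had a more negative log2 difference from DMSO than MYC, and with DW71177 35 genes did. With RVX208, 564 genes did. Genes with a mean log2 value of at least 5 numbered 6736, and among these 29, 30 and 282 had a more negative difference in the 3 comparisons. In the direct comparison of RVX208 with OTX015, 15 genes had a larger positive log2 difference than MYC, and in that of RVX208 with DW71177, 12 genes did. MYC thus stood near the bottom of the ranking with OTX015 and DW71177, and among many other genes with RVX208.

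**Figure D3:**
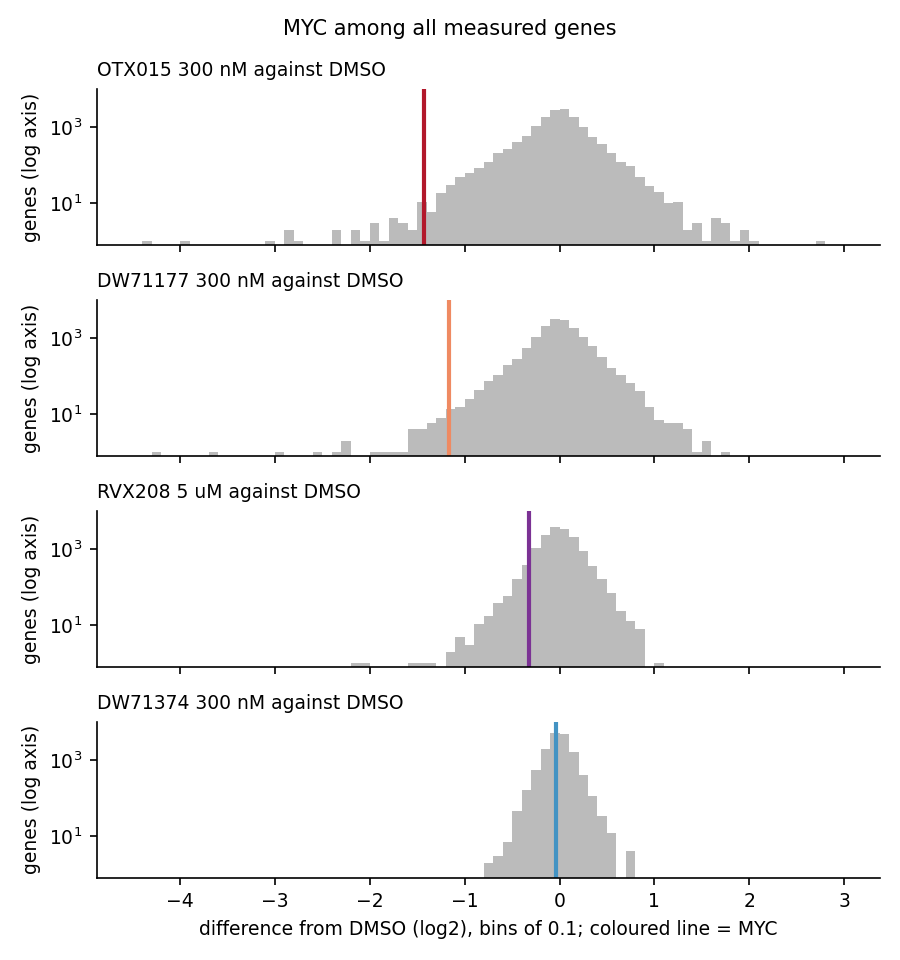
Number of genes (vertical, log axis) by log2 difference from DMSO (horizontal, bins of 0.1) for the 4 compounds, with a coloured line at MYC. The line stands at -1.42 with OTX015, -1.16 with DW71177, -0.32 with RVX208 and -0.04 with DW71374.

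HEXIM1, an inhibitor of the elongation kinase P-TEFb that rises when BET proteins are blocked, moved the other way in the same arrays. Its log2 difference from DMSO was 1.65 with OTX015, 1.11 with DW71177, 0.74 with RVX208 and 0.03 with DW71374.

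The genes of the MAX network did not follow MYC as a group. Of 12 listed family and network genes 10 were measured, and 2 rose and 2 fell with OTX015, 2 rose and 1 fell with DW71177 and 1 rose with RVX208. Over all genes limma called 11.2% higher and 14.5% lower with OTX015, 9.95% and 9.88% with DW71177, and 3.41% and 3.11% with RVX208. Those shares include dim genes, whereas only 1 of the 10 averaged under 5. The 6736 genes of mean 5 or more, fitted alone, gave 3777 calls (OTX015), 3250 (DW71177) and 1576 (RVX208) in either direction. Higher genes made up 43.6% of the OTX015 calls and 52.3% of the RVX208 calls, and 57.5% and 71.7% when arrays were scaled to 5 reference genes. MXD1, which pairs with MAX and represses MYC-bound genes, rose most. Its log2 signal was 6.79, 7.03 and 6.94 with OTX015, 6.76, 6.88 and 6.83 with DW71177 and 6.61, 6.54 and 6.51 with RVX208, against 6.12, 6.16 and 6.25 in DMSO. None of these compound arrays overlapped DMSO. The MXD1 rise was 1.68-fold with OTX015 (log2 0.74 ± 0.069, limma adjusted p = 2.1e-06), 1.57-fold with DW71177 (0.65 ± 0.069, limma adjusted p = 1.6e-05) and 1.30-fold with RVX208 (0.38 ± 0.069, limma adjusted p = 0.0046). Between OTX015 and DW71177 it differed by -0.10 (DW71177 minus OTX015, interval -0.25 to 0.05, limma adjusted p = 0.6).

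MAX itself, the obligate partner, differed from DMSO by 0.12 with OTX015 (interval -0.02 to 0.25), -0.01 with DW71177 (-0.15 to 0.12) and -0.04 with RVX208 (-0.17 to 0.10), and passed no test. MXD4, a relative of MXD1, rose by 0.40 with OTX015 and 0.31 with DW71177 on the log2 scale (limma adjusted p = 0.01 and 0.048), and was 0.16 above DMSO with RVX208 without passing. Its DW71177 call was lost under 10 of 16 other settings, up to an adjusted p = 0.16. MXD3 fell with OTX015 (-0.27, limma adjusted p = 0.0025), and differed by -0.16 with DW71177 and with RVX208 without passing the test. MGA, a large MAX partner that also contains a second DNA-binding domain, fell by 0.38 with OTX015 and by 0.28 with DW71177 (limma adjusted p = 0.00033 and 0.0055), and its difference of -0.12 with RVX208 did not pass. The other measured members passed no test. MNT differed from DMSO by -0.20 to -0.13 with these 3 compounds, MXI1 by -0.17 to -0.05 and MLX by -0.11 to 0.05. The nutrient sensor gene MLXIP differed by 0.06 to 0.22 and its relative MLXIPL, dim at 4.95 in DMSO, by -0.28 to -0.10. With DW71374 limma called 0 of the 10, and 1 had an unadjusted p under 0.05. MYCN and MYCL were not analysed here.

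**Figure D4:**
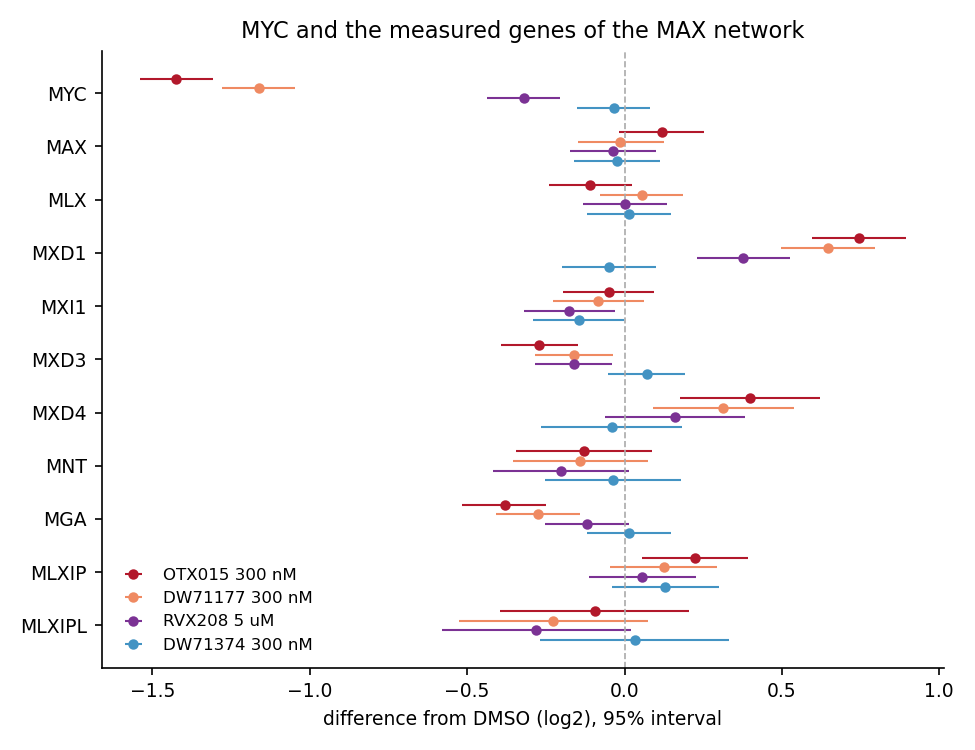
Log2 difference from DMSO (horizontal axis) with its 95% confidence interval for MYC and the 10 measured MAX network genes, by compound. MXD1 lies to the right of zero with OTX015, DW71177 and RVX208, MYC lies to the left, and MAX intervals hold zero for every compound.

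Of 22 measured genes that act on MYC transcription, 4 rose and 4 fell with OTX015, 4 rose and 1 fell with DW71177, and 2 rose with RVX208. Over all genes 11.2% rose and 14.5% fell with OTX015, 9.95% and 9.88% with DW71177 and 3.41% and 3.11% with RVX208. The OTX015 counts of this short list lie near those shares. Those shares include dim genes, whereas only 3 of the 22 averaged under 5. The 6736 genes of mean 5 or more, fitted alone, gave 3777 calls (OTX015), 3250 (DW71177) and 1576 (RVX208) in either direction. The list medians were 0.06, 0.03 and 0.02 against a median near zero over all genes. STAT3, a cytokine-activated factor that can bind the MYC promoter, rose by 1.02, 0.94 and 0.64 on the log2 scale (limma adjusted p = 2.9e-08, 1.2e-07 and 3.3e-05). BRD2, a BET protein, rose with OTX015 (0.52) and DW71177 (0.27), and LMO2, a bridging factor of blood progenitors, rose with all 3 compounds (0.49, 0.53 and 0.27), the RVX208 call being lost under 6 of 16 other settings. E2F1, a cell cycle factor, fell with OTX015 and DW71177 (-0.58 and -0.43), and the myeloid factor SPI1 fell with OTX015 (-0.22, lost under 4 of 16 other settings). FLI1 rose with OTX015 and DW71177 (0.36 and 0.31). MED12 and CTCF fell with OTX015 (-0.20 and -0.15), calls lost under 6 and 12 of 16 other settings. The P-TEFb subunit genes CDK9 and CCNT1 passed no test, at 0.13 and 0.01 with OTX015, and neither did MYB at 0.07. With DW71374 limma called 0 of the 22, with 2 at an unadjusted p under 0.05.

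Among 10 measured genes of MYC protein turnover, 2 rose and 5 fell with OTX015, 3 rose and 4 fell with DW71177, and 2 rose with RVX208, where limma called 11.2% of all genes higher and 14.5% lower with OTX015, 9.95% and 9.88% with DW71177, and 3.41% and 3.11% with RVX208. Shares over all genes include dim genes, whereas 0 of the 10 averaged under 5. Fitted alone, the 6736 genes of mean 5 or more gave 3777 calls (OTX015), 3250 (DW71177) and 1576 (RVX208) in either direction. PIM1, a kinase that stabilises MYC protein, rose by 0.63, 0.57 and 0.38 on the log2 scale. GSK3B, whose phosphorylation of MYC marks it for degradation, rose by 0.45, 0.47 and 0.24, the last of these lost under 10 of 16 other settings (adjusted p up to 0.18). CIP2A, an inhibitor of the phosphatase that destabilises MYC, fell with OTX015 (-0.66) and DW71177 (-0.43), as did its functional relative SET (-0.46 and -0.34), the mitotic kinase gene AURKA (-0.55 and -0.39) and the SUMO protease gene SENP1 (-0.46 and -0.20). The SENP1 call with DW71177 was lost under 12 of 16 other settings. The deubiquitinase gene USP37 fell with OTX015 (-0.32), and USP28 rose with DW71177 (0.39). USP7 and BTRC passed no test, at -0.06 and 0.12 with OTX015. RNA levels of these genes do not measure MYC protein. With DW71374 limma called 0 of the 10, with 1 at an unadjusted p under 0.05.

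Of 13 measured cofactors of MYC, 7 fell and 1 rose with OTX015, 7 fell and 1 rose with DW71177, and 4 fell with RVX208, against 14.5%, 9.88% and 3.11% of all genes called lower. The list medians were -0.35, -0.20 and -0.05. Shares over all genes include dim genes, whereas 0 of the 13 averaged under 5. Fitted alone, the 6736 genes of mean 5 or more gave 3777 calls (OTX015), 3250 (DW71177) and 1576 (RVX208) in either direction. The cofactor counts are to be read against these too. KAT2A, a histone acetyltransferase, had log2 signals of 6.65, 6.72 and 6.65 with OTX015 and 6.51, 6.75 and 6.83 with DW71177, against 7.596, 7.605 and 7.595 in DMSO. Its differences were -0.93 (OTX015), -0.90 (DW71177) and -0.45 (RVX208), all called. The arginine methyltransferase gene PRMT5 fell by 0.75, 0.73 and 0.45, and the helicase pair RUVBL1 and RUVBL2 by 0.63 and 0.57 with OTX015. With RVX208 the RUVBL1 and RUVBL2 calls were lost under 10 and 11 of 16 other settings. The count of cofactors called lower there was 4 in the main fit and ranged from 2 to 6 over the other settings. ACTL6A, HCFC1 and WDR5 fell with OTX015 and DW71177 (-0.45 to -0.20), the DW71177 calls of HCFC1 and WDR5 being lost under 5 of 16 other settings each, and topoisomerase gene TOP1 rose with both (0.24 and 0.30). The scaffold genes TRRAP and EP400 were at -0.06 and 0.12 with OTX015 and passed no test, nor did KAT5, SUPT5H or ZBTB17. With DW71374 limma called 0 of the 13, and 0 had an unadjusted p under 0.05.

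Genes that MYC is known to raise fell together with 3 of the compounds. Of 76 listed genes 47 were measured. With OTX015 41 of these fell, with a list median of -0.66, and 10 fell at least 2-fold. With DW71177 39 fell, with a list median of -0.53, and with RVX208 24 fell, with a list median of -0.23. The median over all genes was -0.00 with OTX015 and -0.01 with DW71177 and RVX208, and limma called 14.5%, 9.88% and 3.11% of all genes lower. Shares over all genes include dim genes, whereas only 2 of the 47 averaged under 5. Fitted alone, the 6736 genes of mean 5 or more gave 3777 calls (OTX015), 3250 (DW71177) and 1576 (RVX208) in either direction. The RVX208 count was 13 to 16 when any 1 of the 3 DMSO or 3 RVX208 arrays was left out, and 13 to 33 under the other settings. With DW71374 limma called 0 of the 47, with 2 at an unadjusted p under 0.05, and the median was -0.00. MYC fell further than most of the list with OTX015 and DW71177. TMEM97 alone of the 47 had a more negative difference than MYC with OTX015, and 0 of them did with DW71177. With RVX208, 11 of the 47 did, among them TMEM97, CCND2, MYBBP1A, NOP16 and NIP7.

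The members with the smallest p-values served DNA repair and replication, nuclear import, sterol handling and ribosome assembly. UNG, which removes uracil from DNA, had log2 signals of 7.17, 7.21 and 7.21 with OTX015 and 7.72, 7.74 and 7.74 with DW71177. Its signals were 8.08, 8.15 and 8.13 with RVX208 and 8.36, 8.31 and 8.23 with DW71374, against 8.30, 8.27 and 8.34 in DMSO. The arrays of OTX015, DW71177 and RVX208 took the same order as for MYC, with no overlap. The UNG differences were -1.11 (OTX015), -0.57 (DW71177) and -0.18 (RVX208) on the log2 scale, the last of these lost under 12 of 16 other settings. TMEM97, a sterol-regulated membrane protein gene, fell by 1.52, 1.10 and 0.50. IPO4, an importin that carries histones and ribosomal proteins into the nucleus, fell by 1.27, 1.05 and 0.45. CDK4, the cyclin D kinase gene, had log2 signals of 8.03, 7.94 and 7.99 with OTX015 and 8.35, 8.42 and 8.32 with DW71177, against 8.92, 8.90 and 8.98 in DMSO. It fell by 0.95, 0.57 and 0.23, and its RVX208 call was lost under 8 of 16 other settings. The nucleolar genes MYBBP1A, MRTO4 and NIP7 fell by 1.07, 1.16 and 1.08 with OTX015, and the replicative helicase gene MCM5 by 0.93.

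Some well known members moved less. ODC1, the rate-limiting enzyme of polyamine synthesis and a classic MYC target, had log2 signals of 9.39, 9.45 and 9.46 with OTX015, against 9.34, 9.42 and 9.35 in DMSO. Its differences from DMSO were 0.07 with OTX015 (interval -0.06 to 0.19), -0.02 with DW71177 (-0.15 to 0.10) and -0.01 with RVX208 (-0.13 to 0.12). The other members not called with OTX015 were TERT, MAP3K6, EIF4E, MPHOSPH10 and CBX3, at -0.25 to -0.04. All but CBX3 had their OTX015 arrays below the DMSO arrays, with unadjusted limma p-values of 0.017 to 0.047. TERT fell with DW71177, a call lost under 7 of 15 other settings. NCL, the major nucleolar protein gene, fell in all 3 (-0.49, -0.42 and -0.25), and LDHA fell by 0.28 with OTX015. NPM1 was not analysed here.

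**Figure D5:**
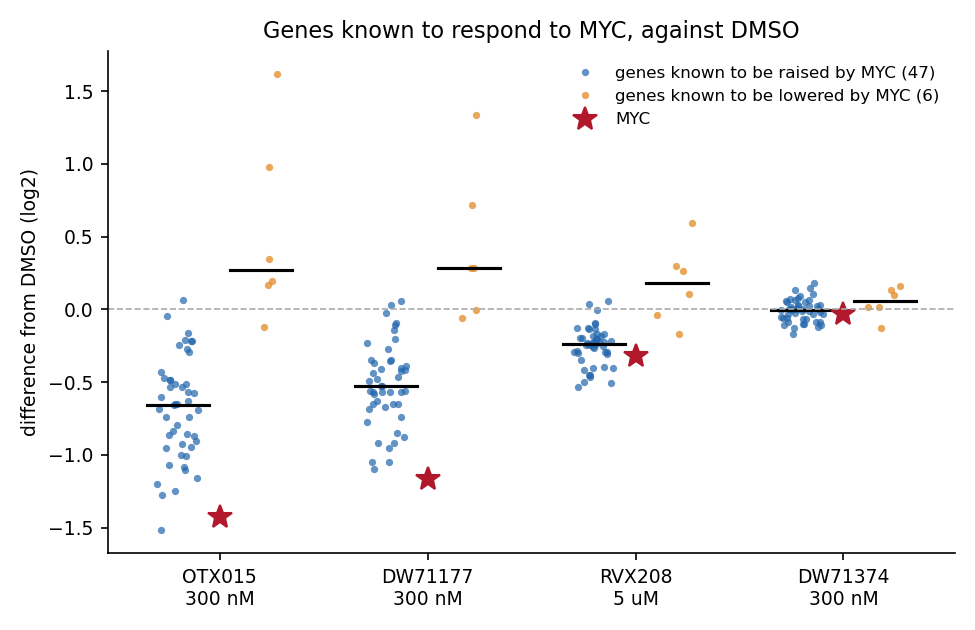
Log2 difference from DMSO (vertical axis) of each of the 47 measured genes known to be raised by MYC (blue) and the 6 known to be lowered by it (orange), by compound, with list medians as black bars and MYC as a star. The blue medians are -0.66, -0.53, -0.23 and -0.00, and the star lies below nearly all blue points with OTX015 and DW71177 but within them with RVX208.

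The E-box was looked up in the promoters of these genes, in RefSeq windows of GRCh38.p14 that run from 250 bases before to 50 bases after a gene's start. The motif searched was CACGTG, which reads the same on both strands, and 7.43% of the first-listed windows of 27305 genes hold it. Windows were at hand for 35 of the 47 genes, under the 80% needed for a share over the list, so that check is void. The stretches below lie before the gene start and are shown because they carry the E-box (in capitals) of the 3 genes with the smallest OTX015 p-values whose upstream bases hold it. The stretch of IPO4 lies at chr14:24188817-24188885, that of DCTPP1 at chr16:30429801-30429849 and that of CDK4 at chr12:57752481-57752560. All 3 are on the minus strand and written 5′ to 3′ along the gene.
IPO4: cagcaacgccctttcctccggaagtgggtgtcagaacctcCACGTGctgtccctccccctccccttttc
DCTPP1: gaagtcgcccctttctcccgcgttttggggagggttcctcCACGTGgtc
CDK4: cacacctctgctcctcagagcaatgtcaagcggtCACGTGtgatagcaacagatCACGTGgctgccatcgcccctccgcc
The motif begins 29 bases before the start of IPO4 and 9 bases before that of DCTPP1, and CDK4 holds 2 copies in the stretch and 3 in its window. A match of letters does not show that MYC binds there. DCTPP1, which hydrolyses deoxycytidine triphosphate, had differences of -1.001 with OTX015, -0.67 with DW71177 and -0.35 with RVX208, all 3 called.

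These genes were also compared between compounds. Of the 47, 34 were higher with RVX208 than with OTX015 (limma called 9.49% of all genes higher in that comparison) and 23 were higher with RVX208 than with DW71177 (2.7% of all genes), at unequal doses. At 300 nM, 7 were higher with DW71177 than with OTX015 (1.07% of all genes), namely UNG, MCM5, CDK4, TMEM97, DCTPP1, PLK4 and MRTO4. Fitted alone, the 6736 genes of mean 5 or more gave 2587, 1219 and 593 calls in these 3 comparisons, in either direction. UNG differed by 0.54 ± 0.051 (limma adjusted p = 3e-04), a larger step between these compounds than the 0.26 of MYC, though the difference between the genes was not tested. The counts of 7 and 23 were 0 and 6 when the fit held only the 6 arrays of the compared groups, and the count of 7 was 4 without DW71177 replicate 1.

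Of 12 genes known to be lowered by MYC 6 were measured, and 3 of these rose with each of OTX015, DW71177 and RVX208, against 11.2%, 9.95% and 3.41% of all genes called higher. Of the 6, 2 averaged under 5. Fitted alone, the 6736 genes of mean 5 or more gave 3777 calls (OTX015), 3250 (DW71177) and 1576 (RVX208) in either direction. The RVX208 count was 2 when any 1 of the 6 arrays was left out. TXNIP, a brake on glucose uptake, had log2 signals of 10.9, 10.8 and 10.9 with OTX015, against 9.23, 9.27 and 9.20 in DMSO. It rose 3.08-fold with OTX015, 2.53-fold with DW71177 and 1.51-fold with RVX208. NDRG1, a stress and differentiation gene, had 6.37, 6.36 and 6.39 with OTX015, 6.03, 6.20 and 6.12 with DW71177 and 5.72, 5.65 and 5.71 with RVX208, against 5.34, 5.42 and 5.43 in DMSO. Its 3 raised groups did not overlap each other or DMSO, and it rose by 0.98, 0.72 and 0.30 on the log2 scale (limma adjusted p = 3.6e-08, 1.4e-06 and 0.0065). CCNG2, an unusual cyclin that goes with cell cycle arrest, rose by 0.34, 0.28 and 0.27, the RVX208 call being lost under 10 of 16 other settings. DDIT3, THBS1 and NDRG2 passed no test, at -0.17 to 0.28, and DDIT3 and THBS1 were dim at 3.24 and 3.802 in DMSO. With DW71374 limma called 0 of the 6, with 2 at an unadjusted p under 0.05. CDKN1A, CDKN1B and CEBPA were not analysed here.

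Of the 12 measured genes nearest to MYC on its chromosome by their order in RefSeq, 6 on each side, 5 fell with OTX015, 3 with DW71177 and 1 with RVX208, against 14.5%, 9.88% and 3.11% of all genes. Limma called 0 of the 12 with DW71374, with 1 at an unadjusted p under 0.05. Of the 12, 8 were dim, with a mean log2 value under 5, as were 5 of the 7 that passed no test with OTX015, so that a fall there could be missed. WASHC5 and TRIB1, before MYC, differed from DMSO by -0.12 to 0.03 with OTX015, DW71177 and RVX208, and passed no test. SQLE, an enzyme of cholesterol synthesis that lies further out, fell by 0.36 with OTX015 and 0.31 with DW71177. CASC8, POU5F1B and LINC00861 were dim, at 2.28 to 3.12 in DMSO, and passed no test. After MYC the nearest were the microRNA genes MIR1205, MIR1206, MIR1207 and MIR1208 of the PVT1 locus, at 2.83 to 4.05 in DMSO. MIR1205 fell with OTX015 (-0.93 ± 0.21), and MIR1206 did so with overlapping arrays (-0.87 ± 0.28, limma adjusted p = 0.032, lost under 6 of 15 other settings). MIR3686, dim at 2.52 in DMSO, fell with OTX015 and DW71177 (-0.69 and -0.72), calls lost under 7 and 5 of 15 other settings. With DW71374 it averaged 3.28, above DMSO, without a call. At these dim levels the size of a fall is not well measured, and PVT1 itself was not analysed here. GSDMC and ADCY8, listed from further along the chromosome and dim at 2.18 and 2.97 in DMSO, passed no test.

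LINC00977, the fifth measured gene after MYC, had a different pattern over the compounds. Its log2 signal was 5.00, 4.83 and 5.16 with OTX015, 4.76, 4.97 and 4.97 with DW71177 and 5.01, 5.03 and 4.83 with RVX208, against 6.06, 5.71 and 5.71 in DMSO. All compound arrays but those of DW71374 lay below DMSO, and the 3 lowered groups overlapped one another. Its log2 differences from DMSO were -0.83 (OTX015), -0.93 (DW71177) and -0.87 (RVX208) (limma adjusted p = 8.4e-05, 5.5e-05 and 0.00054). RVX208 minus OTX015 was -0.04 for LINC00977 (interval -0.29 to 0.21) and 1.10 for MYC (0.99 to 1.22). The 3 lowered groups of LINC00977 averaged 4.995, 4.90 and 4.96, just under 5, where differences are not well measured.

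The arrays of 283 of 14812 genes (1.91%) took the order of MYC without overlap, with OTX015 lowest, then DW71177, then RVX208, then DMSO together with DW71374. Of the 47 measured genes known to be raised by MYC, 19 did so, among them CDK4, MCM5, SRM, FBL, NOP58, HSPD1 and UNG. The share of 1.91% includes dim genes, whereas only 2 of the 47 averaged under 5. A share among genes of mean 5 or more was not counted. The opposite order, highest with OTX015, was taken by 97 genes (0.655%).

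The genes most like MYC over the 15 arrays were sought among the 6735 other genes with a mean log2 value of at least 5. The highest Pearson correlations were 0.995 for IGF1 and CCR1, 0.994 for TOMM40, and 0.991 for FASN, IRF8 and SCIMP. The lowest were -0.988 for TXNIP, -0.984 for IER3, -0.983 for FNBP1 and -0.982 for PRDX1. The arrays fall into 5 groups, so these values describe the group means above all. Within groups, with each array set against its group mean, the 6 highest ones correlated with MYC at -0.42 (SCIMP) to 0.51 (CCR1).

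By root mean square difference after subtraction of each gene's mean, which asks for the same size of change, FASN was the nearest at 0.079 on the log2 scale. FASN, the fatty acid synthase gene, had log2 signals of 7.26, 7.19 and 7.25 with OTX015, 7.54, 7.52 and 7.37 with DW71177 and 8.20, 8.19 and 8.24 with RVX208, against 8.64, 8.71 and 8.74 in DMSO. Like MYC it formed 3 separate levels below DMSO, with log2 differences of -1.47, -1.23 and -0.49. FASN was chosen for its likeness to MYC in these same arrays, so the shared levels follow from the choice. Within groups its correlation with MYC was 0.157. EXOSC5, a subunit of the RNA exosome, the receptor tyrosine kinase gene CSF1R, TRIP6, the nucleotide hydrolase gene DNPH1 and IPO4 followed at 0.106 to 0.119. EXOSC5 and IPO4 are also on the list of genes raised by MYC. The chemokine receptor gene CCR1 and the growth factor gene IGF1 had the shape of MYC but larger differences with OTX015, of -1.76 and -2.86 against the -1.42 of MYC, whereas the mitochondrial import gene TOMM40 was at -0.85.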

How the data were processed

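Per the labels' protocols, total RNA from 15 wells was hybridised as biotin-labelled sense cDNA to an Affymetrix whole-transcript human array. The authors deposited a table of log2 signals for 44629 features. The log2 scale was inferred from the values, and near-identical quartiles showed normalization between arrays. The normalization method, software and build: not given in the sources used here. Features were named through the platform annotation with symbols updated by gene ID. Of these 15835 named 1 gene, 0 named several and 28794 were unnamed there. The brightest feature stood for a gene, which left 14812 genes and the single feature of MYC.

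Groups came from sample titles and doses from the treatment protocol. R 4.3.3 with limma 3.58.1 (lmFit, then eBayes, on 5 group means, 10 residual degrees of freedom) gave differences, standard errors and two-sided p-values, adjusted by Benjamini-Hochberg over all genes and called under 0.05. The script was tested on simulated data. Alternatives tried were other normalizations and scalings, a filter on dim genes, another variance model, array weights, a replicate block, all features, feature means, only the compared arrays, and each array left out; the closing section gives their effect. Arrays give no counting depth, and their number limits the precision. No level filter was applied, and folds of genes under 5 are not well measured.

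The members and gene lists were chosen with earlier results of these data known, and lists were assembled from general knowledge of MYC. Named were all members of lists with up to 12 measured genes, those with the smallest p in longer lists, and the genes most like MYC. UNG, ODC1 and LINC00977 were set out in full after their values were seen, as were the genes taking the order of MYC. Sample titles give replicate numbers only, and arrays were not treated as paired. Same-numbered arrays had deviations correlated at -0.087 to 0.098 over 30 pairs. Over all genes, many of them dim, this cannot exclude a small shared effect. Sequences are RefSeq's.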

Additional observations from a re-analysis of the deposited data

How the results depend on the processing

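MYC kept its direction in all 10 comparisons under the 10 alternative settings and with each array left out, and kept its side of the threshold in 9. The exception was DW71177 minus OTX015. Its difference of 0.261 (limma adjusted p = 0.037) was 0.229 after quantile normalization, 0.255 with arrays centred on their medians, 0.222 scaled to reference genes, and 0.261 with all features or the 6 arrays alone, none passing. With the replicate block it was 0.261 at an adjusted p = 0.058. The block changed no other MYC call. Same-numbered arrays did not deviate together over all genes, which cannot exclude a small effect shared by replicate number. Leaving out 1 array gave 0.228 to 0.297, and 5 of 6 omissions ended the call.

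The other MYC differences ranged as follows when 1 array was left out. OTX015 minus DMSO was -1.438 to -1.407, DW71177 minus DMSO -1.196 to -1.127 and RVX208 minus DMSO -0.342 to -0.303.

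Counts of called genes moved more. For OTX015 against DMSO all features gave 5872 of 44629 features, against 3800 of 14812 genes. For RVX208 against DMSO the 966 became 1576 among genes of mean 5 or more, 1485 with trend and robust variances, 609 with 6 arrays alone and 564 to 636 without 1 array. For DW71177 against OTX015 the 186 became 112 centred on medians, 72 scaled to reference genes, 593 among genes of mean 5 or more, 497 with trend and robust variances, 118 with array weights, 107 with the replicate block, 79 with all features, 1 with 6 arrays alone and 71 to 139 without 1 array. For RVX208 against OTX015 the 2153 became 1353 with 6 arrays alone. For RVX208 against DW71177 the 663 became 1219, 1100 and 75 among genes of mean 5 or more, with trend and robust variances and with 6 arrays alone, and 344 to 458 without 1 array. Some settings tested another total than the 14812 genes. Counts with all features are out of 44629 features, and those among genes of mean 5 or more are out of 6736 genes. These counts therefore do not compare as shares with the main ones. Other causes were not tested.

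Scaling to reference genes (5 of 9 measured, of which B2M rose, PPIA and TBP fell and GAPDH and HPRT1 passed no test with OTX015) moved the share of calls that were higher to 57.5% with OTX015 (43.6% before), 57.8% with DW71177 (50.2% before) and 71.7% with RVX208 (52.3% before); the shares for DW71177 against OTX015 were 71.1% after quantile normalization and 68.1% with reference genes (85.5% before), and that for RVX208 against OTX015 was 54.4% after quantile normalization (65.3% before). Of 242 called differences of named genes, 196 kept their call under all settings run, 46 lost it at least once and 0 changed sign.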
